A study of Homo sapiens with 6 samples.

Results

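The genes described here are 36 genes of the NRF2 antioxidant response and of glutathione metabolism, taken by symbol from a table of 17721 genes. They comprise 3 regulators, 4 antioxidant targets, 4 genes of NADPH supply, 12 genes of glutathione and its sulfur amino acid precursors, and 13 detoxification genes. RNA came from MDA-MB-231BR, a brain-tropic derivative of the human triple-negative breast cancer line MDA-MB-231, grown in monoculture in DMEM with serum. One group of 3 libraries stably expressed a control shRNA (also called shSCR in the labels, genotype Control) and the other 3 an shRNA against ACSS2 (genotype ACSS2 knockdown). ACSS2 is an acetyl-CoA synthetase of the cytosol and nucleus that uses acetate. Hairpins were delivered by lentivirus, followed by antibiotic selection, so every library comes from transduced and selected cells. The labels call the libraries biological replicates and give each a batch tag, Rep1 to Rep3, that recurs in both groups; the sources used here state neither how many hairpins there were nor their sequences. The comparison asks whether transcripts of this response differ when ACSS2 is targeted.

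NRF2, encoded by NFE2L2, is a transcription factor that is held in the cytoplasm and marked for degradation by KEAP1 until oxidants or electrophiles modify KEAP1. It then binds antioxidant response elements together with small MAF proteins and raises genes for quinone reduction, NADPH supply, glutathione synthesis, conjugation and export. BACH1 competes for the same elements as a repressor. Because NRF2 is controlled mainly through its protein stability, its mRNA level is not a measure of its activity, and many glutathione genes also answer to other factors.

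Of the 36 genes, 33 had enough reads to be tested. In the fit without pairing, none of them passed the edgeR quasi-likelihood test at an adjusted p under 0.05. In the same fit, 0.0692% of the 13003 tested genes passed. At an unadjusted p under 0.05 there were 4 of the 33, ABCC3, OPLAH, ABCC2 and AHCY, where all tested genes gave 14.0%. The smallest adjusted p among the 33 was 0.190, and the same comparison by DESeq2 called 1 gene, ABCC3 (adjusted p = 0.0383). Of the 12951 genes that DESeq2 tested, it called 199 higher and 288 lower.

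With the batch number as a block, 9 of the 33 passed (27.3%), where 25.1% of all tested genes did. The multidrug exporters ABCC3 and ABCC2, the glutathione-cycle enzymes OPLAH, GGT7 and GGT1, and the repressor BACH1 rose, with folds between 1.36 and 2.34. The quinone reductase NQO1, the microsomal transferase MGST1 and the methionine-cycle enzyme AHCY fell, by 1.32-fold to 1.53-fold. Rises made up 6 of the 33 and falls 3, where 12.7% of all tested genes rose and 12.4% fell; on the TPM scale this split of all genes was 2288 higher to 1090 lower, against 1657 to 1608 on the count scale. The share of calls among the 33 is close to that of all tested genes. Their median log2 fold change was 0.10 paired and 0.07 unpaired, and that of all tested genes 0.02 in both.

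The groups did not overlap in TPM, a level per transcript length, for 5 of the 33 genes (15.2%), where 21.7% of all tested genes did not overlap. NFE2L2, OPLAH, ABCC2 and ABCC3 were higher in every ACSS2 shRNA library than in any control library, and AHCY was lower. In CPM, a level per library size, for which no share over all tested genes was computed, 7 of the 33 did not overlap. These were the same genes in the same directions, plus GSS and GSTP1, both lower. TPM leaned to the higher side for all genes. Their median log2 difference was 0.11 on the log2(TPM + 1) scale, against 0.02 in the paired fit on counts. The 3 within-number differences had 1 sign in 21 of the 33 genes, where 57.8% of all tested genes had. Paired 95% confidence intervals lay inside 2-fold in either direction for 30 of the 33, where 82.3% of all tested genes had such an interval. Unpaired, 25 of the 33 had one.

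**Figure D1:**
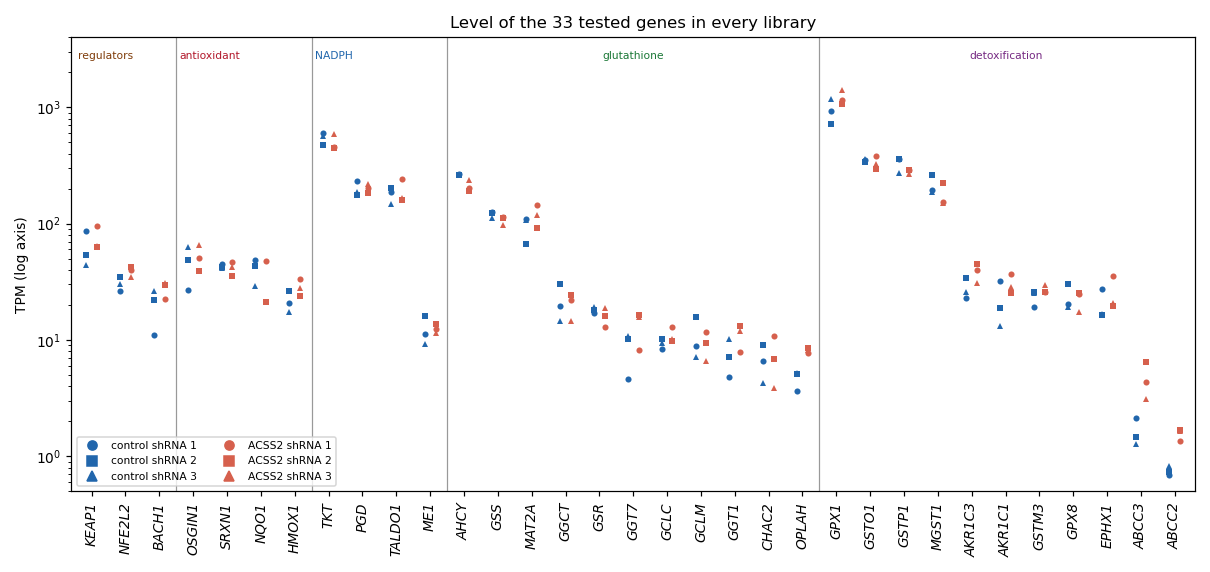
Level of the 33 tested genes in TPM (log axis) in each of 6 libraries, ordered within 5 roles by mean level; colour marks the group and marker shape the batch number. GPX1 sits at the top between 721 and 1398 TPM and ABCC2 at the bottom between 0.69 and 1.69 TPM.

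**Figure D2:**
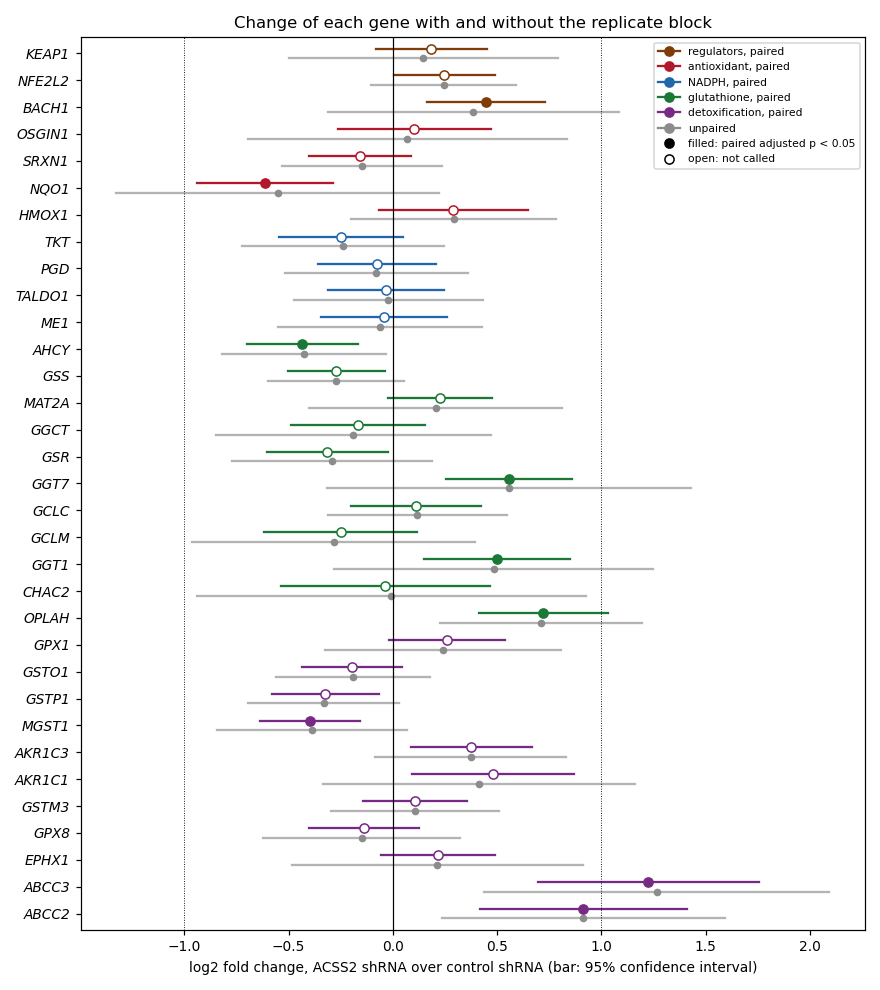
Log2 fold change of ACSS2 shRNA over control shRNA for the 33 tested genes, with 95% confidence intervals, from the paired fit (colour by role, filled where the adjusted p is under 0.05) and from the unpaired fit (grey). Both fits give similar values, and the grey intervals are wider; the 9 filled points are 6 higher and 3 lower genes.

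ACSS2 itself, on chromosome 20 (34866614 to 34955813 in the table), had 43.7, 44.5 and 94.5 TPM in control libraries 1, 2 and 3 and 7.32, 33.3 and 53.0 TPM in ACSS2 shRNA libraries 1, 2 and 3. It was lower within each number, and the groups overlapped. The differences within numbers 1, 2 and 3 were uneven, at -2.76, -0.49 and -0.88 on the log2 scale. In the paired fit the value was -1.31 (log2, SE 0.30, edgeR adjusted p = 0.00757) and -1.05 (adjusted p = 0.504) unpaired. Total counts were 15048275 to 18608124 per library. All 4 markers chosen for the line (VIM, CD44, AXL and MSN) were at 298 TPM or more, and of the 4 chosen as low in it, CDH1 was at most 0.05 TPM, PGR at most 0.24, ESR1 0.57 to 1.21 and EPCAM 1.51 to 4.39 TPM. Summed fibroblast markers were 5.03 to 6.56 TPM in control and 9.28 to 19.4 TPM in ACSS2 shRNA libraries, mostly from COL1A1, while COL1A2, COL3A1 and DCN stayed at 0.22 TPM or less. Endothelial markers summed to 1.81 to 2.43 and 2.57 to 7.44 TPM, with CLDN5 at most 0.05, PECAM1 up to 4.10, and CDH5 at 0.23 to 0.58 TPM in control and 0.89 to 3.23 TPM in ACSS2 shRNA libraries. CDH5 (log2 1.79, adjusted p = 0.00394), CD14 (1.301, adjusted p = 0.00711) and COL1A1 (1.22, adjusted p = 0.000170) rose in the paired fit. The line marker CD44 fell in it (log2 -0.57, adjusted p = 0.00598), while VIM, AXL and MSN did not pass. CD44 had 444 to 486 TPM in control and 298 to 387 TPM in ACSS2 shRNA libraries. Summed leukocyte markers (4 of 5 in the table) were 1.37 to 4.12 and 3.62 to 7.23 TPM, mostly CD14, with PTPRC at most 0.18. Of the 5 neural markers, SNAP25 was at 0 in all libraries and AQP4 and GFAP at or under 0.32 TPM, while the sum, mostly MBP, was 41.7 to 94.98 TPM in control and 31.7 to 76.7 TPM in ACSS2 shRNA libraries. RBFOX3, the fifth neural marker, ran from 1.19 to 21.3 TPM in control and from 0.72 to 12.03 TPM in ACSS2 shRNA libraries and fell in the paired fit (log2 -0.82, adjusted p = 0.00221), as did MBP (-0.41, adjusted p = 0.0220). The part of these genes in the results below was not tested.

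The regulators were the one role in which all 3 genes had positive values in both fits. NFE2L2 (gene ID 4780, 2q31.2) had 26.6, 34.9 and 30.3 TPM in control and 40.1, 42.2 and 35.0 TPM in ACSS2 shRNA libraries 1, 2 and 3. Every ACSS2 shRNA library was above every control library, by a narrow margin. Its log2 fold change of 0.25 (SE 0.11, adjusted p = 0.126) did not pass paired, nor unpaired (0.24, adjusted p = 0.513); on the log2(TPM + 1) scale, tested by limma with the block, it passed (0.35, adjusted p = 0.0446), where the adjusted p over the alternatives with the block ran from 0.0446 to 0.394. KEAP1 (gene ID 9817, 19p13.2), the substrate adaptor that brings NRF2 to its ubiquitin ligase, had 86.3, 53.6 and 44.5 TPM in control and 94.97, 63.0 and 64.3 TPM in ACSS2 shRNA libraries. Library 1 was the high one in both groups, the groups overlapped, and the paired value was 0.19 (SE 0.12, adjusted p = 0.292).

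BACH1 (gene ID 571, chromosome 21, 29193096 to 29598781), the repressor that competes with NRF2, rose 1.36-fold in the paired fit. It had 11.1, 22.1 and 26.4 TPM in control and 22.6, 29.9 and 31.0 TPM in ACSS2 shRNA libraries 1, 2 and 3. The ACSS2 shRNA library was higher within each number, with control library 1 far below the others. The differences within numbers 1, 2 and 3 were 0.82, 0.36 and 0.18 on the log2 scale. The paired log2 fold change was 0.45 (SE 0.13, adjusted p = 0.0256) and the unpaired 0.39 (adjusted p = 0.617). The call was lost without number 1 (0.26, adjusted p = 0.121) and without number 2 (0.46, adjusted p = 0.0803), and its adjusted p over the alternatives with the block ran from 0.00444 to 0.123. The span in the table is 8.58 times that in GENCODE, and whether reads of other transcripts there were counted to BACH1 was not tested.

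Summed over the 3 regulators, the level was 124, 111 and 101 TPM in control and 158, 135 and 130.3 TPM in ACSS2 shRNA libraries 1, 2 and 3. The ACSS2 shRNA sums all lay above the control sums, with a ratio of means of 1.26. The ratio was 1.19 when summed as TMM-scaled CPM. This sum adds an activator to its inhibitors, so it describes mRNA abundance only. An exact permutation of 3 against 3 libraries cannot give a two-sided p under 0.10, and none is given for the sums.

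Of the 4 antioxidant targets, 1 fell and the other 3 did not pass, where 12.4% of all tested genes fell in the paired fit. NQO1 (gene ID 1728, 16q22.1), a quinone reductase and the most widely used readout of NRF2, fell 1.53-fold in the paired fit. It had 49.1, 43.6 and 29.1 TPM in control and 47.8, 21.3 and 21.1 TPM in ACSS2 shRNA libraries 1, 2 and 3. ACSS2 shRNA library 1 lay between control libraries 1 and 2, so the groups overlapped, and the difference within number was -0.23, -1.11 and -0.52 on the log2 scale. Paired, the log2 fold change was -0.61 (SE 0.15, adjusted p = 0.0114), and the unpaired -0.55 (adjusted p = 0.509). Without number 2 it was -0.41 (adjusted p = 0.114), and the adjusted p over the alternatives with the block ran from 0.00115 to 0.114.

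HMOX1 (gene ID 3162), heme oxygenase-1, which NRF2 induces and BACH1 represses, had 20.9, 26.5 and 17.5 TPM in control and 33.7, 23.7 and 27.8 TPM in ACSS2 shRNA libraries 1, 2 and 3. It was higher in ACSS2 shRNA cells in numbers 1 and 3 and lower in number 2, and the paired value of 0.29 (SE 0.16, adjusted p = 0.214) did not pass. SRXN1, which reduces overoxidized peroxiredoxins, lay between 35.8 and 46.9 TPM in all 6 libraries and had a paired value of -0.16 (adjusted p = 0.338). OSGIN1, an oxidative-stress growth inhibitor, ran from 27.0 to 65.8 TPM with a paired value of 0.10 (adjusted p = 0.698). In OSGIN1 the differences within number were 0.71, -0.40 and 0.01, so the pairs did not share a sign. The summed level of the 4 targets was 142, 161 and 151 TPM in control and 179, 120 and 157 TPM in ACSS2 shRNA libraries, with a ratio of means of 1.00 (0.905 as CPM). HMOX1 and NQO1, both classical NRF2 targets, thus had paired values of opposite sign, of which that of NQO1 passed the test.

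The promoters of 4 of these genes are shown because they carry, or lack, the core of the antioxidant response element, here searched as TGACNNNGC on both strands. Each is a RefSeq window on GRCh38.p14 from 250 bases before to 50 bases after the annotated start, read 5′ to 3′ on the gene's strand, with matches in capitals. GSTP1 (chr11:67583562-67583861, plus strand) holds 1 match, TGACTCAGC at position -66 from the start. ME1 (chr6:83431002-83431301, minus strand) holds the same letters at position -137 and another match on the opposite strand after the start. GCLM (chr1:93909381-93909680, minus strand) holds 1 match on the opposite strand at position -34. NQO1 (chr16:69726511-69726810, minus strand), the called antioxidant target, holds none in this window.
GSTP1: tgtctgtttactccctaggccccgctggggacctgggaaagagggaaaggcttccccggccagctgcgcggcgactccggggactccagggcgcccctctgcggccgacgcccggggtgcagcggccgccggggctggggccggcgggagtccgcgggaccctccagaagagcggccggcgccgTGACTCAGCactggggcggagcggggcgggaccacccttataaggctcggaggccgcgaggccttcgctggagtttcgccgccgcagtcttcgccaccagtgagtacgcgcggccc
ME1: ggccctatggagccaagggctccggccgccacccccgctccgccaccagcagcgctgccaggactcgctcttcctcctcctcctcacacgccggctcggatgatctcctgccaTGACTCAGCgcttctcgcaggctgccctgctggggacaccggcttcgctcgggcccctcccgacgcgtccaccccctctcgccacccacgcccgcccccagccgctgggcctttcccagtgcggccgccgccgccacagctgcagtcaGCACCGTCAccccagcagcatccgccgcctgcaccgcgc
GCLM: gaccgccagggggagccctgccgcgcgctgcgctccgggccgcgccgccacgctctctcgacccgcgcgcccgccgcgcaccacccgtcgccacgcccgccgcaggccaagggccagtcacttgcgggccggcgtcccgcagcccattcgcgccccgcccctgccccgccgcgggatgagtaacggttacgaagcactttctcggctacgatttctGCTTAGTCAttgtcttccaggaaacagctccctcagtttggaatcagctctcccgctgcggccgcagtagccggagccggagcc
NQO1: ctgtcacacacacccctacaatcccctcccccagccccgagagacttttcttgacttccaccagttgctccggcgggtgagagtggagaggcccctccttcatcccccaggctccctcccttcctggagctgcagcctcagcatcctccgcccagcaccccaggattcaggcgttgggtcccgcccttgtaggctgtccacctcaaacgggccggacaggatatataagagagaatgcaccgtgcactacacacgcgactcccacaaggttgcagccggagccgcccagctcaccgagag
In GSTP1 and in the upstream match of ME1 the letters also hold the AP-1 site TGANTCA, because NNN reads TCA there. The match of GCLM and the other match of ME1 do not hold it.

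Windows were found for 29 of the 36 genes; GSS, GSR, GGCT, HMOX1, OPLAH, ABCC3 and AKR1B10 had none in the table. The motif was present in 6 of the 29 (20.7%), namely PGD, ME1, GCLM, CBS, GSTP1 and GSTO1, where 14.9% of the 10589 tested genes with a window and 13.3% of all 35116 promoters held it. Of these 6 genes, CBS was not tested and the others were not called in either edgeR fit. Of all tested genes, 25.1% were called in the paired fit. The 7 called genes with a window (BACH1, NQO1, GGT1, GGT7, AHCY, ABCC2 and MGST1) held no match, where 14.9% of tested genes with a window did. Sets this small cannot show whether motif and call are related, and this was not tested. A match is only a run of letters, and its absence here says nothing of elements farther from the start.

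No gene of NADPH supply passed in either fit, where 25.1% of all tested genes passed paired and 0.0692% unpaired. NADPH is the electron donor with which glutathione and thioredoxin are kept reduced, and the pentose phosphate pathway is a main source of it. All 4 paired values were below 0 on the count scale, between -0.25 and -0.03, but PGD, TALDO1 and ME1 turned positive (0.03, 0.07 and 0.06) on the log2(TPM + 1) scale. PGD (gene ID 5226), an NADPH-producing dehydrogenase of the pathway, had 231, 177 and 186 TPM in control and 201, 184 and 221 TPM in ACSS2 shRNA libraries 1, 2 and 3. The differences within number were -0.40, -0.02 and 0.20, and the groups overlapped fully. Its paired log2 fold change was -0.07 (SE 0.13, 95% interval -0.36 to 0.21, adjusted p = 0.715).

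TKT (gene ID 7086), the transketolase of the non-oxidative branch, had 597, 478 and 563 TPM in control and 458, 444 and 591 TPM in ACSS2 shRNA libraries. It was lower in ACSS2 shRNA cells in numbers 1 and 2 and level in number 3, with a paired value of -0.25 (SE 0.14, adjusted p = 0.209). TALDO1, the transaldolase of the same branch, averaged 179 ± 27.4 TPM in control (SD, n = 3) and 189.5 ± 45.9 TPM in ACSS2 shRNA cells, with a paired value of -0.03 (adjusted p = 0.877). ME1, the cytosolic malic enzyme, averaged 12.2 ± 3.51 and 12.5 ± 1.16 TPM, with -0.04 (adjusted p = 0.858). The summed level of the 4 genes was 1027, 871 and 906 TPM in control and 914, 802 and 989 TPM in ACSS2 shRNA libraries, which overlap. Their ratio of means was 0.965, or 0.890 as CPM. The 4 paired intervals lay inside 2-fold, so differences beyond 2-fold in these genes are outside their 95% intervals.

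Among the glutathione genes, 3 rose, 1 fell and 7 of the 11 tested did not pass. Those that rose were OPLAH, GGT7 and GGT1, and AHCY fell. GCLC, GCLM, GSS, GSR, GGCT, CHAC2 and MAT2A did not pass. For comparison, 12.7% of all tested genes rose and 12.4% fell in the paired fit. GCLC (gene ID 2729), the catalytic subunit of glutamate-cysteine ligase and the rate-limiting step of synthesis, had 8.31, 10.2 and 9.41 TPM in control and 12.9, 9.85 and 10.3 TPM in ACSS2 shRNA libraries 1, 2 and 3. ACSS2 shRNA library 1 was the highest, the others overlapped, and the paired value was 0.11 (SE 0.14, adjusted p = 0.609). GCLM (gene ID 2730), its modifier subunit, had 8.94, 15.6 and 7.10 TPM in control and 11.8, 9.47 and 6.65 TPM in ACSS2 shRNA libraries. Control library 2 was the highest, and the differences within number were 0.20, -0.80 and -0.14. The paired value of -0.25 (adjusted p = 0.305) became -0.50 (adjusted p = 0.0418) without number 1 and 0.00 without number 2, where over the alternatives with the block the adjusted p ran from 0.0367 to 1.000.

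GSS (gene ID 2937), glutathione synthetase, had 127, 122.7 and 111 TPM in control and 114, 111 and 97.5 TPM in ACSS2 shRNA libraries 1, 2 and 3. The differences within number were -0.35, -0.22 and -0.24, all lower, the groups overlapped in TPM, and its paired value of -0.27 (SE 0.11, adjusted p = 0.0839) did not pass. Its span in the table (chromosome 20, 34876551 to 34956027, plus strand) shares 79263 bases with that of ACSS2, whereas GENCODE places GSS on the minus strand from 34928433 to 34956027, downstream of ACSS2. Whether reads of the targeted gene were counted to GSS was not tested. GSR (gene ID 2936), glutathione reductase, which returns oxidized glutathione to its reduced form with NADPH, had 17.1, 18.2 and 19.13 TPM in control and 12.9, 15.9 and 18.8 TPM in ACSS2 shRNA libraries. It was lower within each number and the groups overlapped, and its paired value was -0.31 (SE 0.13, adjusted p = 0.103).

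OPLAH (gene ID 26873, 8q24.3), the 5-oxoprolinase that returns 5-oxoproline to glutamate, rose 1.65-fold in the paired fit. It had 3.62, 5.11 and 5.21 TPM in control and 7.80, 8.48 and 8.20 TPM in ACSS2 shRNA libraries 1, 2 and 3, from 151 to 301 counts per library. The groups did not overlap, and the differences within number of 0.90, 0.65 and 0.60 were alike. The paired log2 fold change was 0.72 (SE 0.14, adjusted p = 0.00345), and the unpaired 0.71 (SE 0.21, adjusted p = 0.201). Without number 2 the paired value was still 0.72 (adjusted p = 0.0156). The table places OPLAH on the plus strand with a span 9.23 times that in GENCODE, which has it on the minus strand, and whether reads of other transcripts in that span were counted to it was not tested.

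GGT7 (gene ID 2686, chromosome 20, 34797937 to 34872858), a member of the gamma-glutamyltransferase family, whose active enzymes cleave the gamma-glutamyl bond of glutathione outside the cell, rose 1.47-fold. It had 4.59, 10.3 and 10.8 TPM in control and 8.22, 16.3 and 15.7 TPM in ACSS2 shRNA libraries. Library 1 was low in both groups, the groups overlapped, and the differences within number were nearly equal at 0.55, 0.56 and 0.54. In the paired fit this gave 0.56 (log2, SE 0.14, adjusted p = 0.0125), the unpaired 0.56 (SE 0.38, adjusted p = 0.559). Without number 2 it was 0.52 (adjusted p = 0.105), in a range of adjusted p from 0.00489 to 0.105 over the alternatives with the block. Its span in the table shares 6245 bases with that of ACSS2, on the opposite strand.

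GGT1 (gene ID 2678, 22q11.23), the best-known gamma-glutamyltransferase, rose 1.41-fold. It had 4.77, 7.14 and 10.2 TPM in control and 7.91, 13.1 and 11.95 TPM in ACSS2 shRNA libraries. The ACSS2 shRNA library was higher within each number, by 0.47, 0.83 and 0.20, and the groups overlapped. The paired log2 fold change of 0.50 (SE 0.16, adjusted p = 0.0386) was the least firm call. It was 0.50 (adjusted p = 0.0635) without number 1 and 0.30 (adjusted p = 0.405) without number 2. With RLE factors it was 0.48 (adjusted p = 0.0508) and by DESeq2 with the block 0.48 (adjusted p = 0.122), in a range from 0.0163 to 0.406. GGT1 has near-identical family copies, between which the authors' estimation may have split reads, so its count is uncertain.

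AHCY (gene ID 191, chromosome 20, 34234801 to 34311976), which hydrolyses S-adenosylhomocysteine and so supplies homocysteine for cysteine synthesis, fell 1.35-fold. It had 269, 260.2 and 259.5 TPM in control and 201, 192 and 235 TPM in ACSS2 shRNA libraries. The groups did not overlap, and the control libraries lay close together. Its paired log2 fold change was -0.44 (SE 0.12, adjusted p = 0.0218), the unpaired -0.42 (adjusted p = 0.330). Without number 1 it was -0.35 (adjusted p = 0.0524) and without number 2 -0.43 (adjusted p = 0.141), in a range of adjusted p from 0.00525 to 0.141 with the block. AHCY lies 554638 bases from the ACSS2 span.

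MAT2A, which makes S-adenosylmethionine from methionine, averaged 94.8 ± 24.1 TPM in control and 119 ± 26.5 TPM in ACSS2 shRNA cells (SD, n = 3 each), with a paired value of 0.23 (adjusted p = 0.168). GGCT, the gamma-glutamylcyclotransferase, averaged 21.5 ± 8.01 and 20.3 ± 5.07 TPM, with -0.17 (adjusted p = 0.441). CHAC2, which degrades glutathione in the cytosol, averaged 6.64 ± 2.36 and 7.17 ± 3.496 TPM, with -0.04 (SE 0.23, adjusted p = 0.930). CBS, the first enzyme of transsulfuration, was near the limit of detection, with 0, 0 and 2 counts in control and 0, 0 and 1 in ACSS2 shRNA libraries, and was not tested. The summed level of the 12 genes was 579, 556 and 559 TPM in control and 555, 500.0 and 540.1 TPM in ACSS2 shRNA libraries, with a ratio of means of 0.942. AHCY, GSS and MAT2A made up most of that sum, and the 3 genes that rose added little to it.

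Among the detoxification genes, 2 exporters rose, 1 transferase fell and 8 of the 11 tested did not pass. All tested genes gave 12.7% higher and 12.4% lower in the paired fit. ABCC3 (gene ID 8714, chromosome 17, 50598959 to 50707876), a plasma-membrane exporter of glucuronide and glutathione conjugates, had the largest paired value of the 33 genes. It had 2.14, 1.47 and 1.28 TPM in control and 4.36, 6.45 and 3.12 TPM in ACSS2 shRNA libraries 1, 2 and 3, from 60 to 292 counts. The groups did not overlap, and ACSS2 shRNA library 2 was the highest. It rose 2.34-fold, a paired log2 fold change of 1.23 (SE 0.24, adjusted p = 0.00361); the unpaired value was 1.27 (SE 0.36, adjusted p = 0.190). The differences within number were uneven, 0.46, 1.96 and 1.21, and without number 2 the paired value was 0.79 (adjusted p = 0.0352). In the authors' deposited table, ABCC3 had a log2 fold change of 1.24 with q = 0.0495, the smallest q of the 36 genes; the next was OPLAH with q = 0.113.

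ABCC2 (gene ID 1244, chromosome 10, 99659506 to 99853741), the related apical exporter, rose 1.88-fold. It had 0.69, 0.73 and 0.83 TPM in control and 1.35, 1.69 and 1.65 TPM in ACSS2 shRNA libraries 1, 2 and 3. The groups did not overlap and the differences within number, 0.81, 1.06 and 0.78, were alike, but the values rest on 37 to 78 counts per library. Its paired log2 fold change was 0.91 (SE 0.23, adjusted p = 0.0122) and the unpaired 0.91 (adjusted p = 0.228). By DESeq2 with the block it was 0.89 (adjusted p = 0.0591), and without number 2 0.79 (adjusted p = 0.0900), in a range of adjusted p from 0.00575 to 0.0936.

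MGST1 (gene ID 4257, chromosome 12, 16347142 to 16377189), a membrane-bound glutathione transferase and peroxidase, fell 1.32-fold. It had 195, 264 and 185 TPM in control and 154, 225 and 152 TPM in ACSS2 shRNA libraries. Library 2 was high in both groups, the groups overlapped, and the ACSS2 shRNA library was lower within each number, with differences of -0.54, -0.31 and -0.34. The paired log2 fold change was -0.40 (SE 0.11, adjusted p = 0.0203), the unpaired -0.39 (adjusted p = 0.430). It was -0.32 (adjusted p = 0.0524) without control library 1 and -0.47 (adjusted p = 0.0610) without number 2, and the adjusted p with the block was between 0.0130 and 0.0610.

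The cytosolic transferases did not pass. GSTP1, the pi-class transferase, had 357, 356 and 274 TPM in control and 288, 290 and 266 TPM in ACSS2 shRNA libraries 1, 2 and 3. The differences within number were -0.50, -0.37 and -0.09, with a paired value of -0.32 (SE 0.12, adjusted p = 0.0626). It passed with upper-quartile factors (-0.33, adjusted p = 0.0471) and without number 3 (-0.44, adjusted p = 0.0398), in a range of adjusted p from 0.0374 to 0.251 with the block. GSTO1, an omega-class transferase, averaged 352 ± 9.85 and 332 ± 41.8 TPM (SD, n = 3), with a paired value of -0.20 (adjusted p = 0.217). GSTM3, a mu-class transferase, averaged 23.5 ± 3.71 and 27.1 ± 2.01 TPM, with 0.11 (adjusted p = 0.525). GPX1, the main cytosolic glutathione peroxidase, was the most abundant of the 36 genes per length, at 948 ± 233 and 1205 ± 171 TPM, with 0.26 (adjusted p = 0.159). Its span in the table is 53.1 times that in GENCODE. Whether reads of other transcripts in that span were counted to GPX1 was not tested. GPX8, its relative in the endoplasmic reticulum, averaged 23.3 ± 6.14 and 22.7 ± 4.50 TPM, with -0.14 (adjusted p = 0.428).

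The aldo-keto reductases of the AKR1C cluster at 10p15.1 reduce carbonyls and steroids and are strong NRF2 targets in human cells. AKR1C1 had 32.1, 18.9 and 13.1 TPM in control and 36.8, 25.2 and 28.4 TPM in ACSS2 shRNA libraries 1, 2 and 3. The differences within number were 0.02, 0.37 and 1.10, so the pairs were uneven, and the paired value of 0.48 (SE 0.18, adjusted p = 0.0681) did not pass. Without number 1 it was 0.72 (adjusted p = 0.0129), without a low-count filter 0.45 (adjusted p = 0.0416) and on the log2(TPM + 1) scale 0.55 (adjusted p = 0.0138), in a range of adjusted p from 0.00990 to 0.509. AKR1C3 had 22.9, 33.9 and 25.9 TPM in control and 39.7, 44.7 and 31.0 TPM in ACSS2 shRNA libraries, higher within each number, with a paired value of 0.38 (SE 0.13, adjusted p = 0.0552); on the log2(TPM + 1) scale it was 0.47 (adjusted p = 0.0131), in a range of adjusted p from 0.0131 to 0.224. AKR1C2 had almost no reads, with 3, 2 and 7 counts in control and 1, 4 and 7 in ACSS2 shRNA libraries, and was not tested.

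These 3 genes are near-identical in sequence, and reads can be split between them by estimation. The table gives AKR1C2 a plus-strand span of 178534 bases that covers those of its neighbours AKR1C1 and, in part, AKR1C3, where GENCODE has a minus-strand span of 16624 bases. Single values of the 3 are therefore uncertain. Summed into 1 feature, their counts gave a paired log2 fold change of 0.40 (SE 0.12, adjusted p = 0.0273) and an unpaired one of 0.39 (SE 0.19, adjusted p = 0.395). The sum thus passed the paired fit, where AKR1C1 and AKR1C3 taken singly had not.

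EPHX1, the microsomal epoxide hydrolase, averaged 20.1 ± 6.15 TPM in control and 25.2 ± 8.78 TPM in ACSS2 shRNA cells, with a paired value of 0.22 (adjusted p = 0.233). AKR1B10, another aldo-keto reductase and NRF2 target, had at most 4 counts in any library and was not tested. The summed level of the 13 detoxification genes was 1967, 1810.4 and 2108 TPM in control and 2133, 2034 and 2271 TPM in ACSS2 shRNA libraries, with a ratio of means of 1.09 (1.04 as CPM). GPX1 was the largest single contributor in every library, and the exporters ABCC2 and ABCC3 contributed under 10 TPM in every library.

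**Figure D3:**
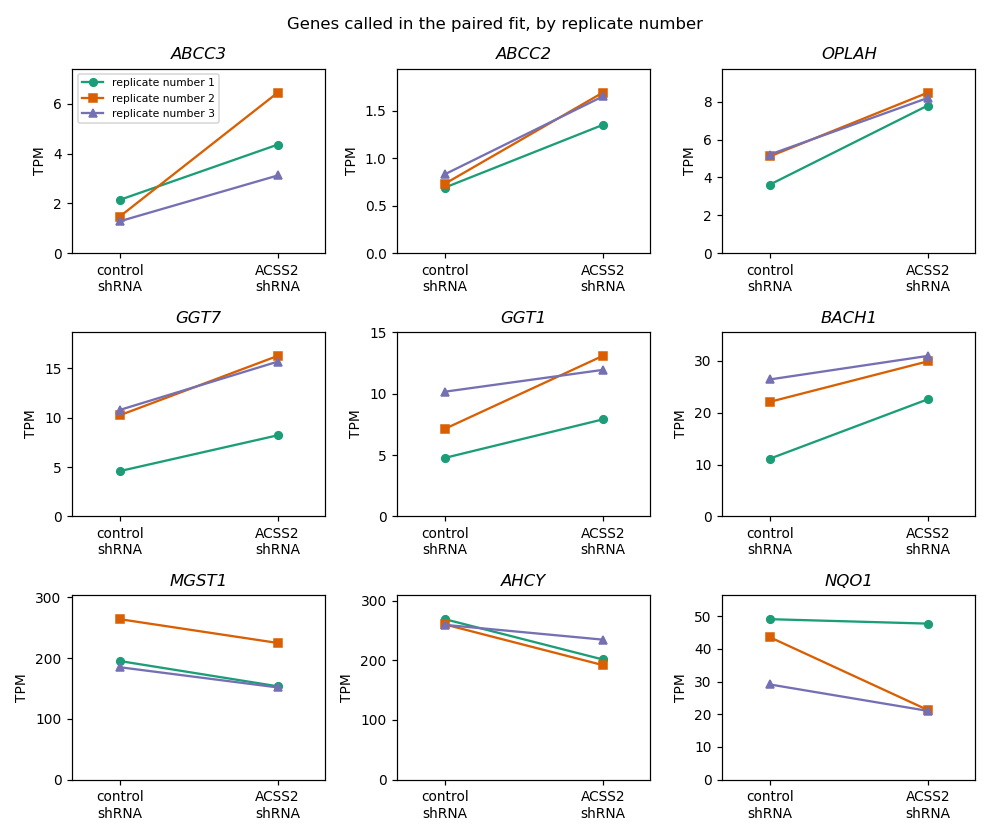
TPM of the 9 genes that passed the paired fit, control shRNA on the left and ACSS2 shRNA on the right of each panel, with lines joining libraries of the same batch number. All lines rise in the 6 upper panels (ABCC3, ABCC2, OPLAH, GGT7, GGT1, BACH1) and fall in the 3 lower ones (MGST1, AHCY, NQO1); number 1 of NQO1 is nearly flat, from 49.1 to 47.8 TPM.

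In the authors' deposited table, which compares the groups without the batch number in any column, the signs of the 33 tested genes matched the unpaired fit and only ABCC3 had q under 0.05. The table's spans also bear on other genes. The strand in the table was opposite to that in GENCODE for 7 of the 36 genes (NFE2L2, NQO1, GSS, CBS, OPLAH, AKR1C2 and GSTM3), and 19 spans were at least 2 times as long as in GENCODE. NQO1, for example, spans 69555430 to 69732999 on the plus strand in the table and 69706996 to 69726951 on the minus strand in GENCODE. Of the exonic bases of NQO1, 18.4% overlap an annotated antisense gene, and 85.0% of those of SRXN1 overlap another annotated gene on its own strand. No source used here gives the strand setting of the counting, so sense and antisense reads cannot be told apart.

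With both terms in the model, 14 of the 33 genes (42.4%) differed between numbers, where 38.7% of all tested genes did. They were KEAP1, BACH1, NQO1, OSGIN1, GCLM, GGT1, GGT7, GGCT, CHAC2, MAT2A, AKR1C1, EPHX1, MGST1 and GPX1. GGT7 was higher in numbers 2 and 3 than in number 1, by 1.01 and 1.12 on the log2 scale (edgeR adjusted p = 0.000880), and BACH1 by 0.62 and 0.90 (adjusted p = 0.00296). KEAP1 was lower there, with differences of -0.71 and -0.69 (adjusted p = 0.00338), as was NQO1 with -0.71 and -0.91 (adjusted p = 0.00420), and EPHX1 with -0.84 and -0.67 (adjusted p = 0.00229). Of the 9 genes that passed the paired shRNA comparison, BACH1, NQO1, GGT1, GGT7 and MGST1 also differed between numbers, and ABCC2, ABCC3, OPLAH and AHCY did not pass that test. None of the 4 genes of NADPH supply passed it.

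**Figure D4:**
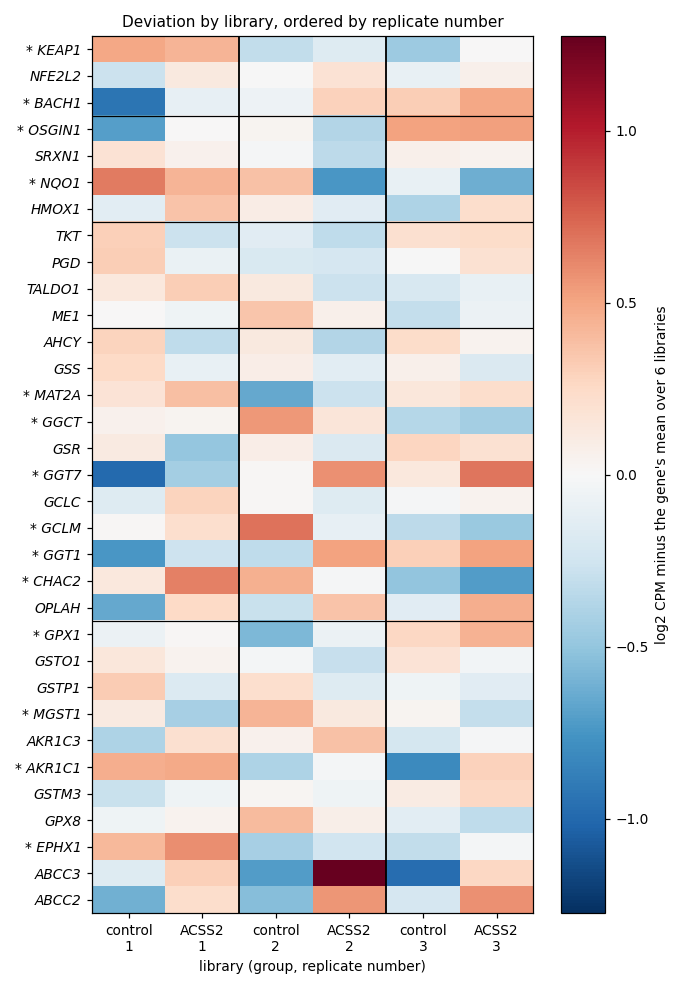
Deviation of log2 CPM from each gene's mean over 6 libraries, with columns ordered by batch number and control beside ACSS2 shRNA within each; an asterisk marks the 14 genes that differed between numbers. KEAP1 and EPHX1 are above their means in both libraries of number 1, whereas OPLAH and ABCC2 alternate between control and ACSS2 shRNA.

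Beyond the 36 genes, 103 further genes of the same pathways were in the table and 87 were tested. In the paired fit 10 of these rose and 14 fell, 27.6% in all, where 25.1% of all tested genes passed, 12.7% higher and 12.4% lower; none passed unpaired. The counts of the single lists below are to be read against those shares. Among 16 other genes of NRF2 control, 3 rose and 2 fell. SQSTM1, the autophagy receptor that can sequester KEAP1, rose by 0.61 on the log2 scale, in which all values of these further genes are given (adjusted p = 0.00563), BTRC, an adaptor of a KEAP1-independent NRF2 ligase, by 0.69 (adjusted p = 0.00160), and EP300, an acetyltransferase coactivator, by 0.39 (adjusted p = 0.0201). SQSTM1 is also an NRF2 target; it had 616, 438 and 663 TPM in control and 1246, 652 and 955 TPM in ACSS2 shRNA libraries.

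Of 20 other NRF2 targets tested, 4 rose and 2 fell. FTH1, the ferritin heavy chain, rose by 0.62 (adjusted p = 0.00648) from 3904, 3199 and 3053 TPM in control to 6889, 5479 and 4599 TPM in ACSS2 shRNA libraries, and the exporter ABCC5 by 0.53 (adjusted p = 0.0152). TXN, thioredoxin, fell by 0.46 (adjusted p = 0.0222). TXNRD1, thioredoxin reductase and a commonly used NRF2 target, had a value of -0.18 (adjusted p = 0.347), and SLC7A11, the cystine importer, -0.48 (adjusted p = 0.0840); neither passed. Genes counted as NRF2 targets thus moved in both directions, NQO1 and TXN lower, FTH1, ABCC5, ABCC2 and ABCC3 higher.

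Of 17 other NADPH genes tested, 2 rose and 3 fell. H6PD, a dehydrogenase that makes NADPH in the endoplasmic reticulum, rose by 0.70 (adjusted p = 0.00341), while NADK, which makes NADP from NAD, fell by 0.55 (adjusted p = 0.00847) and NNT, the mitochondrial transhydrogenase, fell by 0.47 (adjusted p = 0.0109). Of 23 other glutathione genes tested, 1 rose and 4 fell. CHAC1, an inducible glutathione-degrading enzyme of the unfolded protein and amino acid responses, rose by 0.91 (adjusted p = 0.00143), from 8.54, 16.7 and 15.8 TPM in control to 24.8, 32.9 and 24.8 TPM in ACSS2 shRNA libraries. GLO1, which uses glutathione to remove methylglyoxal, fell by 0.48 (adjusted p = 0.0113) and ESD, an esterase that acts on S-formylglutathione, fell by 0.43 (adjusted p = 0.0168).

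Of 11 other glutathione transferases tested, none rose and 3 fell in the paired fit. GSTA4, which conjugates the lipid peroxidation product 4-hydroxynonenal, fell by 1.24 (adjusted p = 0.00141), from 5.58, 10.8 and 10.9 TPM in control to 2.18, 5.36 and 5.14 TPM in ACSS2 shRNA libraries. GSTM1 fell by 1.38 (adjusted p = 0.0164), from 2.36, 3.27 and 1.96 TPM to 0.76, 1.10 and 1.22 TPM, and MGST2 fell by 0.39 (adjusted p = 0.0466). GSTM1 has near-identical neighbours in the mu-class cluster, so its value is uncertain. In TPM the groups did not overlap for 4 of the 11 (36.4%), where 21.7% of all tested genes did not overlap. GSTA4, GSTM1 and MGST2 were the lower ones, and 1 gene that was not called was higher.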

How the data were processed

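RNA-seq of 6 MDA-MB-231BR libraries, 3 per group, was analysed from the deposited gene table. Per the submitters' processing notes, the tools were HISAT, Bowtie2 and RSEM, without versions; no source used here names the genome build, annotation or strand setting. The chromosome accessions are those of GRCh38. The expected counts per gene (estimated reads) and the TPM columns are the authors' values as deposited. The authors' own comparison is deposited as log2 values, p-values and q-values, the last NA for 860 genes. The FPKM values in 6 per-library columns were not used. Before use, 565 lines of spilled annotation text were left out and 26 symbols turned into dates were restored from gene IDs. Of the 17721 genes, 797 had no counts, and 17479 IDs were found in a RefSeq table.

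Expected counts, of which 10.47% to 13.01% per library had decimals, were rounded. Genes were tested in edgeR 4.0.16 (R 4.3.3) by its quasi-likelihood F test with TMM factors and filterByExpr (minimum count 10, minimum total 15), which left 13003 genes, and called where p adjusted by Benjamini-Hochberg was under 0.05. The unpaired fit has the group alone. The paired fit adds the batch number from the labels as a block, and differences between numbers are the F test of those terms. Deviations from group means correlated across genes by 0.716, 0.494 and 0.740 between same-numbered libraries, and by at most -0.01 otherwise. Deviations within a group sum to 0, so positive same-number values pull the other values below 0. The numbers were taken to pair the libraries from the labels' batch tags and the same-number values. The common biological coefficient of variation came to 26.6% without and 11.8% with the block. SE was obtained as |log2 fold change|/sqrt(F). Differences within a number are of log2 CPM (prior count 2). A range of adjusted p "with the block" covers the alternatives that keep it.

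All 36 genes are accounted for. Values in every library are given for the main regulators, targets and AKR1C genes and for every gene called in either fit. Of the wider lists, up to 3 called genes with the smallest paired p are named, plus genes named whatever their test: TXNRD1, SLC7A11 and 1 more that is not reported here. Members, lists and tests were chosen with earlier results of these data known. Scripts were tested on simulated data. Alternatives used DESeq2 1.42.0, limma 3.58.1 on log2(TPM + 1) and log2(TPM + 0.1) for genes with a mean of at least 1 TPM, other scaling factors, no low-count filter, AKR1C counts summed, and leaving out libraries or numbers. Promoters are from RefSeq (GRCh38.p14), and spans, exons and 3′ UTRs from GENCODE annotation of GRCh38.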

Additional observations from a re-analysis of the deposited data

How the results depend on the processing

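Of the 33 tested genes, the unpaired fit called 0 in the main analysis, 1 (1 higher) by DESeq2 and 9 (6 higher, 3 lower) with the replicate block. The paired fit called 9 in the main analysis and 0 (0 higher, 0 lower) with no replicate block. With limma and the block it called 14 (11 higher) on the log2(TPM + 1) scale and 14 (11 higher) on the log2(TPM + 0.1) scale, where NFE2L2, MAT2A, GPX1, AKR1C1 and AKR1C3 were added and the median of all genes was 0.11 and 0.12 instead of 0.02. Of the 12133 genes tested on each of these scales, 2288 were higher and 1090 lower, and 2243 and 1057. In the main paired fit 1657 and 1608 of 13003 were. DESeq2 gave 1119 and 1390 paired, and 199 and 288 unpaired against 3 and 6. Leaving out a library or a replicate number gave 2 to 10 paired calls (2 to 6 higher, 0 to 4 lower), lowest without number 2, where ABCC3 and OPLAH were the calls. Calls among all tested genes were also fewest without number 2, with 664 higher and 917 lower of 13061. A library left out of the paired fit also removes its partner's contrast. Between numbers, 14 genes differed, and 9 to 10 with 1 number left out. Among all tested genes 5030 of 13003 differed, and 2922 to 4329 of 13061 to 13108 with 1 number left out. Ratios of summed TPM moved as CPM to 1.19 for regulators, 0.898 for glutathione genes and 1.04 for detoxification genes, and with 1 library left out, an alternative chosen after seeing the data, ran from 1.19 to 1.33 for regulators and from 1.05 to 1.14 for detoxification genes. For antioxidant targets the ratio went from 1.00 to 0.905 as CPM, and for NADPH genes from 0.965 to 0.890. Uncalled genes near 0 changed sign in the paired fit. On the 2 TPM scales PGD was 0.0335 and 0.0337, TALDO1 0.0718 and 0.0721, ME1 0.0644 and 0.0714, and CHAC2 0.0512 and 0.0511. With a library or number left out, PGD ran from -0.21 to 0.0873, TALDO1 from -0.15 to 0.11, ME1 from -0.17 to 0.0526, CHAC2 from -0.36 to 0.16, OSGIN1 from -0.20 to 0.32, GCLC from -0.0664 to 0.22 and GCLM from -0.50 to 0.00177. Of the gene values under all paired alternatives, 464 kept direction and side of the threshold. Another 43 fell below it, 21 rose past it and 31 changed sign. Only the 9 called genes could fall below it. Each had 17 alternatives, of which GGT1 kept its call in 8, ABCC3 and OPLAH in 16, and the others in 10 to 13. The unpaired values cover the same 9 genes. Of these values, 143 kept both and 10 rose past the threshold, 9 of them with the replicate block. The cause was not tested. ABCC2 rests on 37 to 78 counts per library, and CBS, AKR1B10 and AKR1C2 were too low to test.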

Other observations

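The 36 genes together made up between 3510 and 4087 TPM of each library, with a ratio of ACSS2 shRNA to control means of 1.04, or 0.963 as CPM, and the sums of the groups overlapped. GPX1, TKT, GSTO1, GSTP1 and AHCY held most of it, and the genes that rose with the largest folds, ABCC3 and ABCC2, were at the low end.

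An earlier analysis of these data picked out the hexamer TGGGTC in 3′ UTRs. It occurs in GENCODE 3′ UTRs of 7 of the 36 genes (19.4%), where 29.04% of the 12790 tested genes with a 3′ UTR hold it, 44.1% of those that fell and 26.3% of those that rose in the paired fit. Of the genes that fell here, AHCY holds 1 copy and NQO1 and MGST1 hold 0. Of those that rose, BACH1 and ABCC3 hold 1 copy each. As the hexamer was picked from these data, its shares among called genes are not independent evidence. Differences in 3′ UTR length were not accounted for. The part of the hexamer in the results was not tested.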
